A study of Mus musculus with 6 samples.

Results

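Solute carriers are membrane proteins whose genes mostly carry symbols starting with Slc and a number. The genes described here are 165 with such a symbol that were expressed in sorted mouse macrophages. They are called carriers for short, although 3 of them are not transporters. A gene counted as expressed when its FPKM (reads scaled to gene length and to the reads of the library, a level per length) was at least 1 in at least 3 of the 6 libraries. Of 21936 genes listed, 375 had such a symbol. Among these, 12 carriers of glucose, lactate, carnitine, cystine, arginine, iron, zinc and manganese were left out by name, 198 stayed under the threshold, and 70 of the latter had no read in any library. FPKM values chose the members, so their levels are a description. The expressed carriers closest to the threshold were Slc25a35, Slc29a2 and Slc22a18, which had 3 libraries at or above 1.01, 1.01 and 1.13 FPKM. Just outside it were Slc7a4, Slc25a27 and Slc9a5, which had 3 libraries at or above 0.939, 0.935 and 0.924.

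The study compared macrophages of mice kept on a high-fat diet for 4 months, and its title names macrophage senescence, the RNA demethylase ALKBH5 and the chemokine CCL5. Group WT was ALKBH5flox/flox on an APOE-/- background. Group CKO was likewise ALKBH5flox/flox and APOE-/-, and also carried Lyz2-Cre, a Cre recombinase under a promoter active in myeloid cells, that is in macrophages and neutrophils. Both groups therefore had floxed Alkbh5 alleles, lacked Apoe by label and ate the same diet. The controls carried no Cre, so effects of the Cre itself cannot be told apart from those of the deletion. Each group had 3 libraries. The labels used here give neither age nor sex, and leave unsaid whether the 3 stem from different animals. The p-values therefore reflect only how libraries vary, and that variation may be technical.

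Carriers move solutes across membranes by coupling them to ion gradients, by exchanging one solute for another or by letting them run down their own gradient. Some act at the cell surface, others in lysosomes, the Golgi apparatus or mitochondria, so the set of carriers a cell makes shapes both what it takes up and how it shares solutes between compartments. Macrophages engulf cells, lipoproteins and debris, and use lysosomal and metal carriers to recover amino acids, nucleosides, sugars, iron, copper and haem from what they digest.

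To show the starting regions of carriers at both ends of the range of differences, promoter sequences are printed for the 2 largest rises and the 2 largest falls on the log2(FPKM + 1) scale that had an entry in the RefSeq table (build GRCm38.p6, the assembly also called mm10). Each runs 5′ to 3′ on the gene's strand, from 250 bases before the transcript start to 50 after it. Capitals mark every match, on either strand, to 4 short patterns: TGATGCAA of the amino acid response, CACGTGAC of lysosomal genes, GAAANNGAA of the interferon response and TGACNNNGC of the antioxidant response. Slc7a8, on the minus strand at chr14:54781837-54782136, held 1 match, to GAAANNGAA. Slc6a13, on the plus strand at chr6:121300038-121300337, has 3 starts in the table, of which the one nearest the listed gene start is shown, and held 1 match to TGACNNNGC. Slc46a3, on the minus strand at chr5:147894766-147895065, held 2 matches to TGACNNNGC, and Slc5a3, on the plus strand at chr16:92058072-92058371, held 0.
Slc7a8: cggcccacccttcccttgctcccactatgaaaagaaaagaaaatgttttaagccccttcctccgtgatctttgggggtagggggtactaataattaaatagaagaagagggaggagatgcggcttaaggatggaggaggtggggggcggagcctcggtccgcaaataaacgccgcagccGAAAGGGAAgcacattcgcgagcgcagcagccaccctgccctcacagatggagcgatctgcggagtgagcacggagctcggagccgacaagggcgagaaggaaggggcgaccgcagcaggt
Slc6a13: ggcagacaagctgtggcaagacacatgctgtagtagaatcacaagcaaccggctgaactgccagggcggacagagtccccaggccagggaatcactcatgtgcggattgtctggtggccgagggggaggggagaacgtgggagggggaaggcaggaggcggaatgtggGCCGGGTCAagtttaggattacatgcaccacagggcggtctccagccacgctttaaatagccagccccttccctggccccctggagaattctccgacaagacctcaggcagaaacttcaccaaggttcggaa
Slc46a3: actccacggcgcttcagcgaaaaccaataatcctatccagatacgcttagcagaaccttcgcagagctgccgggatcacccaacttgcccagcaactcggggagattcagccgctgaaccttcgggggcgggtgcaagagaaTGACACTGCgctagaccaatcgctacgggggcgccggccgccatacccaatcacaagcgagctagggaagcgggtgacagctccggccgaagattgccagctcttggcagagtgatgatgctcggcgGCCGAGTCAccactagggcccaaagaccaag
Slc5a3: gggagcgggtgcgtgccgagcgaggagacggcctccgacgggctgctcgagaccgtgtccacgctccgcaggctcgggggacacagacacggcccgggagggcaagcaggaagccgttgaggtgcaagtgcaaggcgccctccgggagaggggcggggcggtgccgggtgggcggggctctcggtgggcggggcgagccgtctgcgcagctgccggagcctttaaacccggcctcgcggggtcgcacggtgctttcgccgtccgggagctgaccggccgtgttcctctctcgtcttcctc
A match is a run of letters and not a shown binding site. Over the 125 expressed carriers with a promoter in the table, TGACNNNGC was found in 22.4%, against 15.3% of 8070 tested genes and 12.4% of 27025 promoters of this length. CACGTGAC was found in 7.20% of the carriers, 4.70% of tested genes and 2.30% of all promoters, GAAANNGAA in 6.40%, 7.57% and 8.57%, and TGATGCAA in 1.6%, 0.607% and 0.914%. The 9 carriers with CACGTGAC included Slc31a2 and Slc25a33, which were higher in the libraries labelled CKO, and Slc36a1, Slc20a1, Slc25a13 and Slc35a5, which were lower. TGACNNNGC stood in 10 of the 41 higher carriers with a promoter (24.4%) and in 13 of the 63 lower ones (20.6%).

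Reads assigned to genes numbered 15422154 to 18418903 per library. Alkbh5, the gene to be deleted, stood at 3.77, 3.95 and 3.88 FPKM in the libraries labelled WT and at 9.15, 8.61 and 8.50 in those labelled CKO, against the label, so every direction below refers to labelled groups only. Lyz2, whose promoter drives the Cre, stood at 15116 ± 992 FPKM with the WT label and 6556 ± 211 with the CKO label (SD, n = 3), lower in the group labelled as carrying the Cre. Apoe, lacking by label in both groups, stood at 1635 FPKM on average with the WT label and at 95 with the CKO label. It was thus present against the label, and differed between groups that share that label. All 3 are whole-gene values, which do not show single exons, and the cause of these differences was not tested. All 8 macrophage markers reached 1 FPKM, with a summed level of 2043 to 2064 in the WT-labelled and 2796 to 2849 in the CKO-labelled libraries, but 5 were higher and 3 lower: Adgre1 rose from 221.8 to 778 FPKM, while Cd68 fell from 1149 to 595, Mertk from 18.4 to 8.18 and Mrc1 from 29.7 to 1.88. Of the neutrophil markers 10 of 11 reached 1 FPKM, with sums of 636 to 933 against 242 to 249. Ngp, Ltf and Elane fell from 108, 42.0 and 7.19 FPKM to 0.305, 0.104 and 0.019, while Lcn2 rose from 21.7 to 152. Of the erythroid and platelet markers 3 of 10 reached 1 FPKM, the platelet genes Ppbp, Pf4 and Itga2b, with sums of 173 to 189 against 115 to 128. The dendritic cell sum went from 1.90 to 2.34 up to 20.4 to 23.9 FPKM, through Ccr7 (0.742 against 21.1), of 7 markers the only 1 to reach 1 FPKM. Of the rest Clec9a (0.615 against 0.109), Siglech and Cd209a fell, while Xcr1 (0.034 against 0.274) and Zbtb46 rose. The values of Flt3 overlapped between the groups. The endothelial sum went from 26.4 to 27.1 down to 7.77 to 8.99, mainly through Vwf (19.8 against 2.78). Kdr fell as well (5.89 against 3.94), but Pecam1 rose (0.880 against 1.47). Sums of T and NK cells, B cells, fibroblasts and smooth muscle stayed under 6 FPKM in every library. Of the adipocyte list only Fabp4 reached 1 FPKM, with sums of 38 to 41.8 against 6.60 to 6.88. The part of these marker shifts in the carrier results was not tested, and in bulk RNA fewer cells of a type and less RNA per cell cannot be told apart.

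Most expressed carriers differed between the labelled groups, about as often as other genes. By limma on log2(FPKM + 1), with Benjamini-Hochberg adjustment over 9953 genes and calls at an adjusted p under 0.05, 140 of the 165 were called, or 84.8% against 81.1% of all tested genes. Higher in the CKO-labelled libraries were 52 carriers (31.5%, against 30.5% of all tested genes), and 88 were lower (53.3%, against 50.5%). The 2 groups' values did not overlap for 147 carriers (89.1%, against 82.5% of all tested genes). Differences of at least 1 on the log2 scale numbered 17 upward (10.3%, against 8.35% of all tested genes) and 25 downward (15.2%, against 10.0%). The median difference, CKO-labelled minus WT-labelled, was -0.18 over the carriers and -0.14 over all tested genes. The overall split rests on scaling: with median-of-ratios factors the median difference of all genes moved from -0.14 to 0.011, 4058 genes were higher and 3874 lower, against 3038 and 5031 as deposited, and the carriers split 68 to 79. Of the 165, 18 reached 1 FPKM in libraries of only 1 group, 12 in the WT-labelled and 6 in the CKO-labelled libraries, so those had to differ. They were Slc12a2, Slc14a1, Slc16a7, Slc18a2, Slc18b1, Slc22a18, Slc25a23, Slc27a6, Slc37a1, Slc39a8, Slc9a9 and Slc9b2 with the WT label and Slc6a9, Slc6a13, Slc7a5, Slc13a3, Slc25a35 and Slc29a2 with the CKO label, and their values are given as a description without a test. The shares called in either direction lie near those of all genes. The counts by class below stand beside 30.5% higher and 50.5% lower and a median of -0.14 over all tested genes, and no class was tested as a set. They include the 18 genes named above, whose direction was fixed by the choice.

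Levels spanned a wide range. Mean FPKM over the 6 libraries ran from 0.800 to 230.7, with a median of 7.51. Summed over all 165, the level was 2907 ± 15.8 FPKM (SD, n = 3) in the WT-labelled and 3194 ± 14.9 in the CKO-labelled libraries, while the order of the most abundant carriers changed. The taurine carrier Slc6a6 had rank 1 with the WT label and rank 10 with the CKO label. The haem carrier Slc48a1 went from rank 3 to 1, the peptide carrier Slc15a3 from 15 to 2, the hexose carrier Slc2a6 from 22 to 6 and the iron carrier Slc25a37 from 50 to 9.

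**Figure D1:**
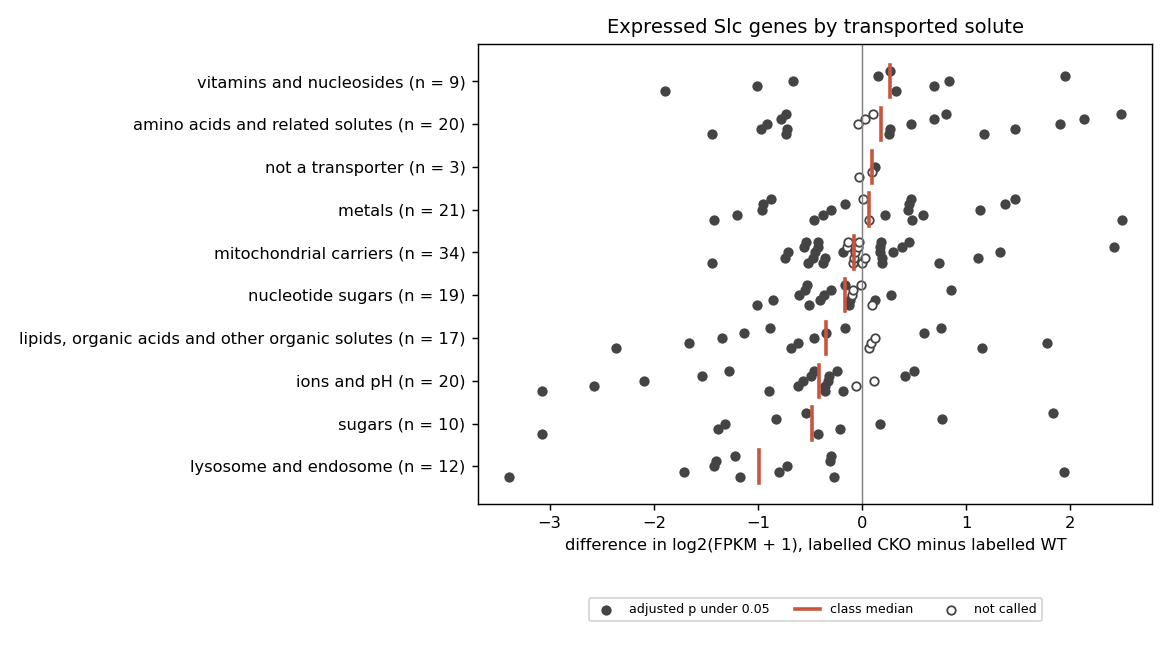
Differences of the 165 expressed carriers, grouped by solute or compartment and ordered by class median; the x axis is the difference in log2(FPKM + 1), labelled CKO minus labelled WT. Each circle is 1 gene, filled where limma's adjusted p was under 0.05, and bars mark medians. The lysosome and endosome class lies lowest, with a median of -0.98 and 1 gene above 0.

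Amino acid carriers went both ways: of 20, 10 were higher, 7 lower and 3 not called, with a median difference of 0.18 on the log2 scale (-0.14 over all tested genes). Among the 10, Slc6a9, Slc6a13 and Slc7a5 reached 1 FPKM only in CKO-labelled libraries, so their direction was fixed by the choice. With median-of-ratios factors 13 were higher and 7 lower (median 0.32). Upward, the surface exchanger of CD98, formed by the heavy chain Slc3a2 and a light chain, stood out by level. Slc7a8, the light chain LAT2 that exchanges neutral amino acids (chromosome 14, 54722209 to 54781946, mm10), measured 12.1, 11.4 and 12.2 FPKM in the WT-labelled libraries and 73.0, 68.7 and 73.6 in the CKO-labelled ones. The groups lie far apart, and the difference was 2.49 (SE 0.040, limma adjusted p = 3.69e-13). Slc3a2 rose alongside, from 57.3, 58.2 and 55.5 to 129, 128 and 131 FPKM, a difference of 1.17 (SE 0.030, limma adjusted p = 1.55e-11). The light chain Slc7a11 is among the genes left out by name and is not part of what follows. Slc7a5, the leucine carrier LAT1, stood low, at 0.872 ± 0.087 and 1.6 ± 0.26 FPKM (SD, n = 3 each). Slc7a6 and Slc7a7, which exchange cationic for neutral amino acids, were not called, at 6.02 against 6.54 and 8.68 against 8.90 FPKM, although both were called as higher under median-of-ratios and quantile scaling. Together Slc7a5, Slc7a6, Slc7a7 and Slc7a8, the 4 light chains described here, summed to 27.5 ± 0.818 and 88.8 ± 2.78 FPKM (n = 3 each), and Slc7a8 made up 43.4% ± 0.275 and 80.8% ± 0.656 of that sum. FPKM of Slc3a2 per light chain FPKM was 2.08 ± 0.109 with the WT label and 1.46 ± 0.034 with the CKO label (n = 3 each, exact two-sided permutation p = 0.1, the smallest that 3 against 3 libraries allow).

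**Figure D2:**
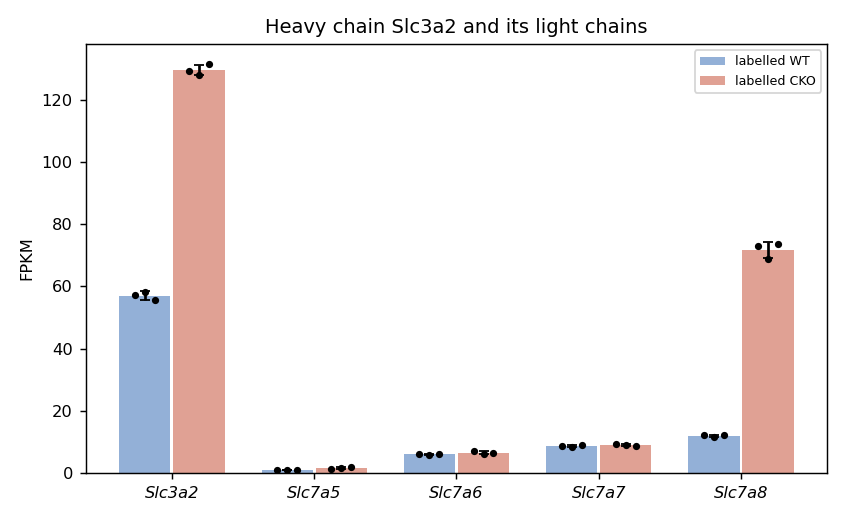
Levels in FPKM of the CD98 heavy chain Slc3a2 and 4 of its light chains; bars are means, error bars the SD over 3 libraries per labelled group, points single libraries. Of the 4 light chains plotted, Slc7a8 is the highest in the CKO-labelled libraries, at 68.7 to 73.6 FPKM.

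Sodium- and chloride-coupled carriers of the Slc6 family split by substrate. Slc6a6, which takes up taurine, was the most abundant carrier with the WT label, at 228, 231 and 230.3 FPKM, and fell to 85.0, 83.7 and 83.2, a difference of -1.44 (SE 0.026, limma adjusted p = 8.37e-13). Slc6a8, the creatine carrier, fell from 46.4 ± 0.209 to 26.6 ± 0.428 FPKM (SD, n = 3). Carriers of GABA, betaine and glycine went the other way. Slc6a13, a GABA carrier (chromosome 6, 121300227 to 121337733), stood at 0.617, 0.806 and 0.847 FPKM in the WT-labelled and at 7.28, 6.48 and 6.42 in the CKO-labelled libraries. Slc6a9, the glycine carrier GlyT1, was low with the WT label, at 0.222, 0.249 and 0.222 FPKM from 63 reads in all, and stood at 3.70, 3.78 and 3.33 with the CKO label. Both passed the threshold through the CKO-labelled libraries alone, so that they differ was fixed by the choice. Slc6a12, which carries betaine and GABA, was abundant in every library, at 62.4, 54.6 and 66.1 against 111, 104 and 107 FPKM, a difference of 0.81 (SE 0.059, limma adjusted p = 1.45e-07). The serotonin carrier Slc6a4, a gene of platelets and mast cells as well, rose only from 1.68 ± 0.270 to 2.23 ± 0.121 FPKM (n = 3).

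Several carriers of glutamine and other neutral amino acids fell. Slc38a2 (SNAT2) went from 35.7, 35.4 and 36.5 to 17.8, 18.3 and 17.2 FPKM, a difference of -0.97 (SE 0.037, limma adjusted p = 4.32e-10). Slc38a1, Slc1a5 (ASCT2), Slc43a2 (LAT4) and Slc36a4 also fell, by 0.72, 0.73, 0.73 and 0.91 on the log2 scale, none with overlapping groups. Within the Slc38 family Slc38a6 was the only gene called as higher and rose from 9.47 ± 0.743 to 15.8 ± 0.183 FPKM (n = 3). Slc38a10 was not called, but was called as higher with median-of-ratios factors. Slc43a3, a purine nucleobase carrier related in sequence to Slc43a2, rose from 1.91, 1.98 and 1.69 to 6.55, 6.65 and 7.58 FPKM.

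Metal carriers rose in total level through haem and copper carriers. Their summed level was 382 to 386 FPKM in the WT-labelled and 729 to 739.5 in the CKO-labelled libraries, although 10 genes were higher, 9 lower and 2 not called (median difference 0.064). With median-of-ratios factors 11 were higher and 8 lower (median 0.19). Slc48a1 (HRG1), which carries haem out of digestive compartments (chromosome 15, 97778520 to 97792692), measured 121, 122 and 123 against 334, 339.9 and 344 FPKM, a difference of 1.47 (SE 0.026, limma adjusted p = 6.63e-13). It overlaps exons of Hdac7 on the opposite strand, which stood at only 2.64 and 6.0 FPKM. Both copper carriers rose. Slc31a1 (CTR1), the high-affinity uptake carrier, went from 41.4, 42.2 and 42.2 to 92.2, 92.8 and 95.2 FPKM. Slc31a2 (CTR2), found mainly on inner membranes, went from 57.6, 57.2 and 58.1 to 149, 151 and 152. Their differences were 1.14 and 1.37 (SE 0.030 and 0.027, limma adjusted p = 1.79e-11 and 1.74e-12). Haem and copper carriers together made 57.6% ± 0.330 of the metal sum with the WT label and 79.4% ± 0.472 with the CKO label (n = 3), and the remaining 18 genes summed to 163 ± 1.59 and 152 ± 2.54 FPKM.

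Zinc carriers of the Slc39 family, which bring zinc into the cytosol, numbered 8 besides the 2 left out by name: 1 was higher, 6 were lower (75%, against 50.5% of all tested genes) and 1 was not called. The higher one, Slc39a4 (ZIP4, chromosome 15, 76612383 to 76617384), went from 2.66, 2.24 and 2.55 to 17.9, 19.5 and 18.6 FPKM, a difference of 2.50 (SE 0.058, limma adjusted p = 6.48e-12), next to that of Slc7a8 at the top of the log2(FPKM + 1) scale. Its relatives Slc39a10 and Slc39a11 fell, from 11.4 ± 0.331 to 3.61 ± 0.110 and from 27.4 ± 1.52 to 11.4 ± 0.902 FPKM (SD, n = 3 each). Slc39a8 (ZIP8), which also takes manganese, fell from 1.87 ± 0.084 to 0.484 ± 0.031 FPKM. It is 1 of the 6 lower carriers, and its direction was fixed by the choice. Of 5 Slc30 carriers, which move zinc out of the cytosol, 3 were higher and 1 lower. Slc30a5 and Slc30a6, partners in loading zinc into the secretory pathway, went in opposite directions, by -0.96 and 0.58 (SE 0.048 and 0.074, limma adjusted p = 4.82e-09 and 2.02e-05). The divalent iron carrier Slc11a2 (DMT1) rose from 17.2 ± 0.119 to 23.6 ± 1.06 FPKM (n = 3). The magnesium carriers Slc41a1 and Slc41a3 went from 3.64 to 5.46 and from 6.56 to 4.54 FPKM, both called.

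**Figure D3:**
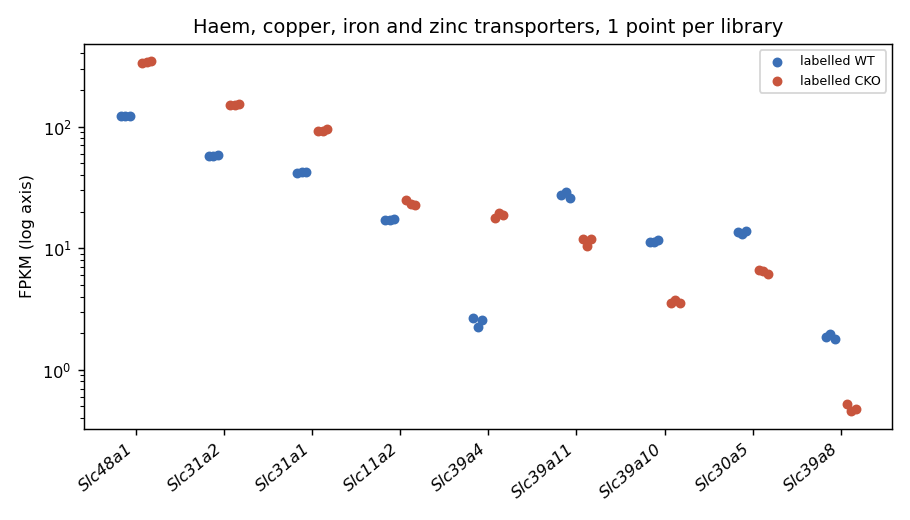
Levels of haem, copper, iron and zinc carriers in FPKM on a log axis, 1 point per library, by labelled group. Slc48a1, Slc31a2, Slc31a1, Slc11a2 and Slc39a4 lie higher with the CKO label, and Slc39a11, Slc39a10, Slc30a5 and Slc39a8 lower.

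Lysosomal and endosomal carriers formed the class with the lowest median, -0.98: of 12, 11 were lower (91.7%, against 50.5% of all tested genes) and 1 higher. Among the 11, Slc18a2 and Slc18b1 reached 1 FPKM only in WT-labelled libraries, so their direction was fixed by the choice. Slc46a3, which passes digestion products from the lysosome to the cytosol (chromosome 5, 147878437 to 147894815), had the largest fall on the log2(FPKM + 1) scale. As a ratio it fell 15.4-fold, less than some carriers of lower level. It measured 31.0, 28.8 and 30.4 FPKM with the WT label and 1.99, 2.0 and 1.87 with the CKO label, a difference of -3.39 (SE 0.047, limma adjusted p = 1.12e-13). Slc17a5 (sialin), the exporter of free sialic acid, fell from 29.1, 27.8 and 29.5 to 8.05, 8.78 and 7.53 FPKM. Slc29a3, the nucleoside carrier of lysosomes, fell from 54.1, 53.4 and 50.1 to 19.5, 19.1 and 19.2. In each of these genes the groups are well apart, with differences of -1.71 and -1.40 for the latter pair (SE 0.053 and 0.038, limma adjusted p = 7.18e-11 and 2.36e-11). Vesicular carriers of nucleotides (Slc17a9), polyamines (Slc18b1) and monoamines (Slc18a2) were lower too, from 4.29 to 0.976, from 1.56 to 0.098 and from 1.68 to 0.535 FPKM. The smallest falls were those of the amino acid exporter Slc36a1 and the arginine sensor Slc38a9, by 0.30 and 0.27.

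Against this stood Slc15a3, a carrier of peptides and histidine on the same membranes (chromosome 19, 10839727 to 10859362). It measured 50.1, 45.7 and 46.0 FPKM in the WT-labelled and 182, 179.5 and 189.6 in the CKO-labelled libraries, a difference of 1.94 (SE 0.040, limma adjusted p = 2.45e-12). Its exons overlap Tmem132a on the opposite strand, at 8.74 and 14.7 FPKM. Its closest relative Slc15a4, which carries the same substrates, fell from 24.2, 24.9 and 24.9 to 10.5, 10.4 and 10.3 FPKM. The ratio of the 2 went from 1.92 ± 0.133 to 17.6 ± 0.638 (n = 3). Because Slc15a3 rose, the class sum hid the falls: Slc15a3 made 18.4% ± 0.529 and 66.5% ± 0.790 of it, and the other 11 carriers summed to 209.9 ± 3.70 and 92.4 ± 1.57 FPKM. Ctns, the lysosomal cystine exporter, which belongs to the carriers without an Slc symbol in these files, fell from 29.2 to 10.1 FPKM on average.

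Of 20 carriers of ions and pH, 16 were lower (80%, against 50.5% of all tested genes), 2 higher and 2 not called (median -0.41). Among the 16, Slc9a9, Slc9b2 and Slc12a2 reached 1 FPKM only in WT-labelled libraries, so their direction was fixed by the choice. With median-of-ratios factors 14 were lower and 4 higher (median -0.26). Slc26a11, a chloride and sulphate carrier (chromosome 11, 119355557 to 119381079), fell from 26.4, 25.4 and 23.9 to 1.99, 2.16 and 2.16 FPKM, a difference of -3.08 (SE 0.052, limma adjusted p = 4.70e-13). Sodium-proton exchangers of inner membranes were among the falls. The endosomal Slc9a9 went from 6.37, 6.66 and 6.24 to 0.277, 0.183 and 0.267 FPKM, and the Golgi exchanger Slc9a7 from 10.1 in each library to 1.44, 2.04 and 1.38. The difference of Slc9a7 was -2.09 (SE 0.084, limma adjusted p = 7.33e-10), while Slc9a9 was expressed by the rule through the WT-labelled libraries alone. The bicarbonate carrier Slc4a7, which brings base into the cell, rose from 3.54 ± 0.267 to 5.05 ± 0.385 FPKM (n = 3). Falls at the cell surface were smaller, with the phosphate carriers Slc20a1 and Slc20a2 lower by 0.46 and 0.36 and the anion exchanger Slc4a2 by 0.35. Slc24a5, a sodium and calcium exchanger of inner membranes, fell from 8.78 to 2.38 FPKM.

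The class of sugar carriers, which also holds the myo-inositol carrier Slc5a3, numbered 10, of which 3 were higher and 7 lower. Among the 7, Slc37a1 reached 1 FPKM only in WT-labelled libraries, so its direction was fixed by the choice. Slc2a6 (GLUT6), a hexose carrier of inner membranes, rose from 34.4, 31.3 and 33.3 to 119, 116 and 125 FPKM, a difference of 1.83 (SE 0.041, limma adjusted p = 4.88e-12). Slc2a8, a relative of inner membranes too, fell from 4.42 ± 0.438 to 2.73 ± 0.063 FPKM (n = 3). In the Slc37 family of sugar phosphate exchangers, Slc37a2 fell from 49.7, 51.5 and 51.2 to 19.4, 19.9 and 19.9 FPKM, while the glucose-6-phosphate carrier Slc37a4 rose from 4.87 ± 0.264 to 8.99 ± 0.133 (n = 3). Slc5a3, the sodium-coupled uptake carrier of myo-inositol, an osmolyte, fell from 19.8, 18.5 and 22.6 to 1.65, 1.65 and 1.28 FPKM, a difference of -3.08 (SE 0.080, limma adjusted p = 1.74e-11). Its exons overlap those of Mrps6 on the same strand, which fell from 8.0 ± 0.777 to 2.81 ± 1.24 FPKM (n = 3), so reads of the 2 genes may be split between them. Slc5a3 and the taurine carrier Slc6a6 both take up osmolytes and fell, whereas Slc6a12, the betaine carrier and likewise an osmolyte carrier, rose.

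**Figure D4:**
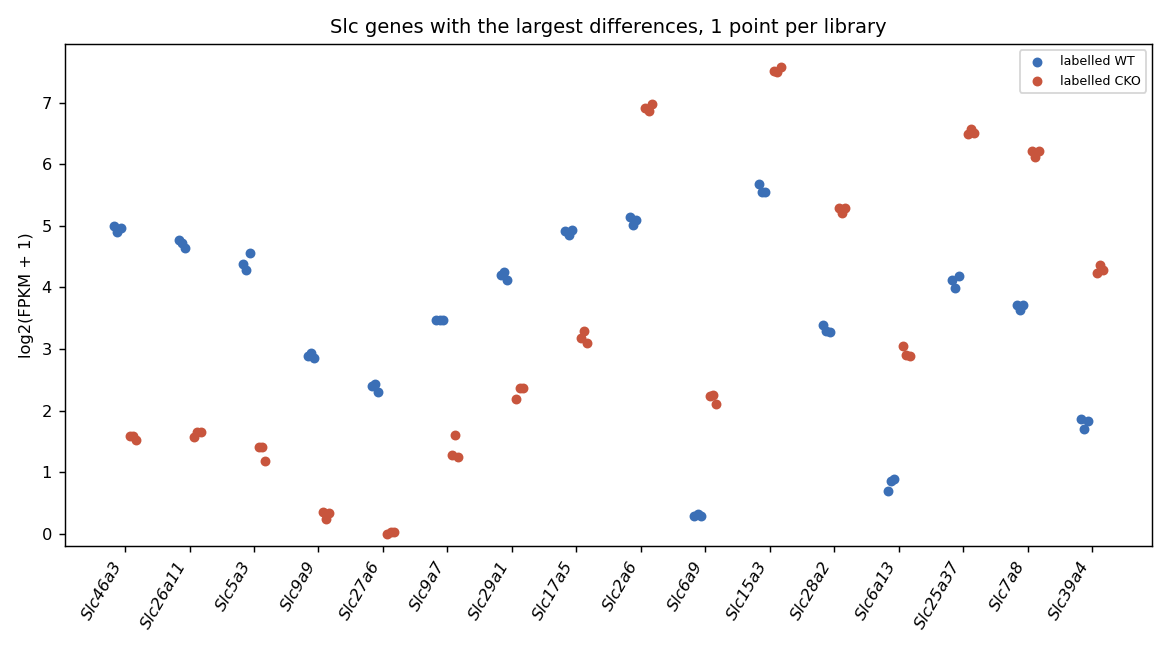
The carriers with the 8 largest falls and the 8 largest rises among those called, as log2(FPKM + 1), 1 point per library. Differences run from -3.39 for Slc46a3 to 2.50 for Slc39a4, and groups without overlap were a condition of the choice. Slc27a6, Slc9a9, Slc6a13 and Slc6a9 passed the FPKM threshold through 1 labelled group alone, so that they differ was fixed by the choice.

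Of 9 vitamin and nucleoside carriers 6 were higher (66.7%, against 30.5% of all tested genes) and 3 lower, with a median of 0.27, or 0.41 with median-of-ratios factors. Nucleoside carriers of the cell surface differed in direction. Slc28a2 (CNT2), which concentrates purine nucleosides with sodium, rose from 9.44, 8.79 and 8.72 to 38.3, 36.1 and 38.1 FPKM. Slc29a1 (ENT1), which lets nucleosides equilibrate, fell from 17.4, 18 and 16.5 to 3.55, 4.14 and 4.16. Their differences were 1.95 and -1.89 (SE 0.043 and 0.059, limma adjusted p = 4.50e-12 and 8.80e-11), and their ratio went from 0.519 ± 0.029 to 9.54 ± 1.08 (n = 3). Slc29a2 (ENT2), the other passive carrier, stood low, at 0.720, 0.812 and 0.597 against 1.01, 1.07 and 1.34 FPKM. It is 1 of the 6 higher carriers, and its direction was fixed by the choice. The vitamin C carrier Slc23a2 rose from 24.5 ± 0.503 to 44.6 ± 0.919 FPKM, and the thiamine carrier Slc19a2 from 2.50 ± 0.093 to 4.67 ± 0.294. The folate carrier Slc19a1, of the same family, fell from 2.03 ± 0.072 to 0.911 ± 0.117, and Slc5a6, which takes up biotin and pantothenate, from 3.66 ± 0.488 to 1.32 ± 0.127 (n = 3 each).

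Carriers of lipids, organic acids and other organic solutes numbered 17, with 4 higher, 10 lower and 3 not called (median -0.35). Among the 10, Slc27a6, Slc16a7, Slc14a1 and Slc22a18 reached 1 FPKM only in WT-labelled libraries. Among the 4, Slc13a3 did so only in CKO-labelled libraries. The direction of these genes was fixed by the choice. With median-of-ratios factors 7 were higher and 9 lower (median -0.18). Slc27a6, a fatty acid carrier, was all but absent with the CKO label. It measured 4.30, 4.42 and 3.94 FPKM with the WT label and 0.00, 0.026 and 0.023 with the CKO label, or 557 against 2 reads, a depth-adjusted ratio of 264 (95% exact interval 72.9 to 2189). The interval covers counting error only and is no test, since the gene entered through the WT-labelled libraries alone. The other fatty acid carriers were moderate by comparison: Slc27a1 fell from 39.7 ± 1.37 to 28.6 ± 1.12 FPKM and Slc27a4 rose from 12 ± 0.759 to 21.0 ± 0.183 (n = 3 each). Slc22a4, the ergothioneine carrier, rose from 3.91, 4.69 and 3.93 to 16.0, 16.9 and 17.2 FPKM (difference 1.78, SE 0.062, limma adjusted p = 2.30e-10). Its close relative Slc22a5, the carnitine carrier, was not called, at 4.93 ± 0.156 against 5.33 ± 0.557 FPKM (n = 3), but was called as higher under the other scalings. Among monocarboxylate carriers Slc16a7 and Slc16a6 fell, from 4.76 to 0.817 and from 7.03 to 2.66 FPKM, while Slc16a10, which carries aromatic amino acids, rose from 16.0 to 24.8. Slc13a3, a dicarboxylate carrier, appeared in the CKO-labelled libraries at 1.58, 1.58 and 1.3 FPKM against 0.052, 0.118 and 0.173. The urea carrier Slc14a1, known from red cells and kidney, stood at 1.94, 1.56 and 1.65 FPKM with the WT label and at 0.131, 0.016 and 0.070 with the CKO label. The choline carrier Slc44a1 and the acetyl-CoA carrier Slc33a1 fell by 0.61 and 0.35.

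Mitochondrial carriers were the largest class with 34 genes, of which 12 were higher, 13 lower and 9 not called. Their median was -0.072, with the sign turning positive under both other scalings (0.099 with median-of-ratios factors and 0.023 with quantile normalization). Slc25a35, counted as higher, and Slc25a23, counted as lower, reached 1 FPKM in 1 labelled group only, so their direction was fixed by the choice. Abundant carriers of energy metabolism went both ways by less than 1 on the log2 scale. Slc25a5, the ADP/ATP exchanger ANT2, fell from 218, 217 and 221 to 169, 168 and 168 FPKM, and the phosphate carrier Slc25a3 from 102, 99.0 and 102 to 69.2, 68.1 and 70.6, differences of -0.37 and -0.53 (SE 0.025 and 0.029, limma adjusted p = 7.15e-08 and 1.21e-08). Slc25a4, the exchanger ANT1, was not called at 49.8 ± 0.464 against 49.7 ± 1.25 FPKM (n = 3), but was called as higher with median-of-ratios factors. Slc25a4 and Slc25a5 are alike in sequence, so reads may have been assigned to either. Citrate and oxoglutarate carriers, Slc25a1 and Slc25a11, rose slightly, by 0.19 and 0.17. The carriers of NAD and of glutathione, Slc25a51 and Slc25a39, fell by 0.52 and 0.42, and the sodium and calcium exchanger Slc8b1 by 0.36.

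Against that background 3 mitochondrial carriers, Slc25a37, Slc25a22 and Slc25a33, rose by at least 1 on the log2 scale, Slc25a37 the most. Slc25a37 (mitoferrin 1), which brings iron into mitochondria (chromosome 14, 69241848 to 69285112), went from 16.5, 14.9 and 17.2 to 89.3, 93.7 and 89.7 FPKM, a difference of 2.42 (SE 0.049, limma adjusted p = 2.04e-12). It is best known from red cell precursors. The erythroid markers Klf1, Alas2 and the haemoglobin genes stayed under 0.6 FPKM in every library, and the cell source of the rise was not tested. Mitoferrin 2, Slc25a28, did not pass the test at 9.31 ± 0.159 and 9.06 ± 0.309 FPKM, although it was called as higher with median-of-ratios factors. The ratio of the 2 mitoferrins went from 1.74 ± 0.135 to 10.0 ± 0.567 (n = 3). The aspartate-glutamate exchangers of the malate-aspartate shuttle traded places: Slc25a12 rose from 6.81, 6.54 and 6.29 to 12.1, 11.2 and 11.6 FPKM, and Slc25a13 fell from 8.79, 8.44 and 9.51 to 2.81, 2.83 and 2.32. Their differences were 0.74 and -1.44 (SE 0.048 and 0.069, limma adjusted p = 5.59e-08 and 3.39e-09). The glutamate carrier Slc25a22 rose from 5.31 ± 0.304 to 14.8 ± 0.339 FPKM, and Slc25a33, which carries pyrimidine nucleotides, from 1.56 ± 0.184 to 4.61 ± 0.947 (n = 3).

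**Figure D5:**
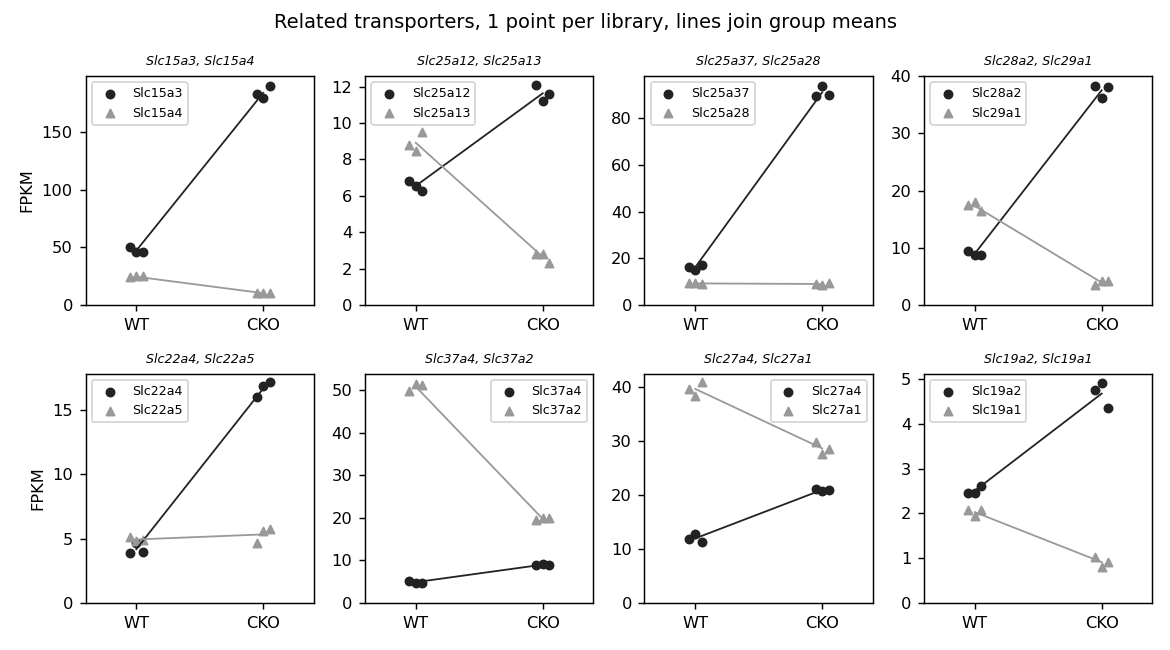
Related carriers in FPKM, 1 point per library, with lines joining the means of the labelled groups; each panel has its own scale. In 6 panels the 2 genes were called in opposite directions, and in the panels of Slc25a37 with Slc25a28 and Slc22a4 with Slc22a5 only the first was called, while Slc25a28 and Slc22a5 were called as higher under median-of-ratios scaling.

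The Slc35 family holds the nucleotide sugar carriers, which supply the Golgi apparatus and endoplasmic reticulum for glycosylation. Its 19 expressed genes formed 1 class, although not all of them carry nucleotide sugars. Of these 19, 3 were higher, 12 lower and 4 not called, with a median of -0.17. With median-of-ratios factors 5 were higher and 9 lower (median -0.013). Slc35b1, the ATP carrier of the endoplasmic reticulum, rose from 17.2, 18.1 and 17.0 to 31.8, 33.0 and 32.3 FPKM (difference 0.86, SE 0.038, limma adjusted p = 1.74e-09). Slc35c2 fell from 21.0, 20.7 and 19.2 to 9.16, 9.64 and 10.1, and Slc35a5 from 8.23 ± 0.304 to 4.09 ± 0.093 FPKM (n = 3). Slc35a2, the UDP-galactose carrier, rose from 5.60 ± 0.366 to 6.98 ± 0.179. Finally, 3 genes with an Slc symbol are not carriers but proteins named for binding or neighbouring one. Slc9a3r1, a scaffold protein, was higher at 77.0 ± 2.82 against 70.5 ± 2.29 FPKM, and Slc7a6os and Slc4a1ap were not called.

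Ratios show how related carriers moved against each other within a library. The 11 pairs computed were picked after the values were seen, so their ratios are a description without a test. The ratio of Slc2a6 to Slc2a8 went from 7.50 ± 0.769 to 44.0 ± 2.55 and that of Slc19a2 to Slc19a1 from 1.24 ± 0.046 to 5.20 ± 0.854 (n = 3 each). The copper carriers Slc31a1 and Slc31a2 moved together, with a ratio of 0.728 ± 0.0096 and 0.619 ± 0.0053.

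Carriers of the same nomenclature that go by other symbols, from a list drawn up by name, were mostly lower: of 26 tested, 4 were higher, 19 lower and 3 not called (73.1% lower, against 50.5% of all tested genes). Ucp2, a mitochondrial carrier, fell from 85.9, 88.2 and 87.3 to 20.2, 20.2 and 19.9 FPKM. Ank, which exports solutes such as ATP and citrate, fell from 14.5, 15.6 and 15.0 to 2.18, 1.42 and 2.13. The lysosomal lysophospholipid carrier Spns1 fell, like Ctns, from 30.4, 29.7 and 29.4 to 16.0, 14.7 and 14.4 FPKM. Slco3a1, an organic anion carrier, rose from 1.35, 1.5 and 1.32 to 12.6, 11.7 and 11.8 FPKM.

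The fewest reads behind a carrier were 124, summed over the 3 libraries of its higher group, and the median coefficient of variation across carriers was 4.05% in the WT-labelled and 4.02% in the CKO-labelled libraries. Exons of 52 carriers overlap another gene, on the opposite strand for 46 and on the same strand for 8, where the authors' counting could divide reads.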

How the data were processed

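RNA from sorted macrophages, extracted with TRIzol, was made into stranded mRNA libraries, per the labels' protocols, 3 per group, grouped by the sample titles. The authors deposited FPKM per gene for each library, per the file headers. Multiplied by listed gene length, 100% of values came out as whole reads within 0.01, so that depth could be recovered. The submitters' processing notes name, without roles, build mm10 and the tools HISAT2 2.1.0, fastp 0.19.3, featureCounts 1.6.2, StringTie 1.3.4d, GATK 4.0.11.0, DESeq2 1.22.1 and Cufflinks.

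The 9953 genes that reached 1 FPKM in 3 or more libraries entered limma 3.58.1 (R 4.3.3, lmFit and eBayes with trend) on log2(FPKM + 1), group as the only term, Benjamini-Hochberg adjusted, called under 0.05. Differences are on that scale, which understates changes of low genes. Tables and exact tests used Python 3.11.15, pandas 2.3.3, numpy 2.4.6 and scipy 1.17.1, and figures matplotlib 3.10.9. The fit was tested on simulated data. In a library, 3 reads of a gene of 1 kb equal 0.163 to 0.195 FPKM. Between libraries of a group, the chi-square of reads per degree of freedom was 2.16 to 3.18, so none was a copy of another.

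The members and lists were chosen with earlier results of these data known. Named were carriers picked by role, the 8 largest called differences each way without overlap, the 6 highest levels, 3 per class by smallest p, the 6 highest not called and 3 on each side of the threshold (90 in all), plus 29 named after their values were seen. Some results are not reported here. Classes were assigned by hand; Slc4a1ap was moved to the genes that are not carriers, and 2 class names were lengthened, after the values were seen. Exon overlaps came from GENCODE M21 and promoters from RefSeq. Alternatives were the pseudocounts 0.1 and 0.5, a replicate block, omission of each library, no expression filter or one at a mean of 5 FPKM, scaling by median of ratios or quantiles, limma without trend, and limma voom on the recovered reads.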

Additional observations from a re-analysis of the deposited data

How the results depend on the processing

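Counts of called carriers stayed within 1.5 times of 52 higher and 88 lower in every setting run, at 48 to 68 higher and 79 to 90 lower where all 165 were tested, and 36 and 61 of the 112 with a mean of 5 FPKM or more. Over all genes that filter left 3185 lower, against 5031, because only 6402 genes were tested. Of the 140 called carriers, 124 kept direction and call in every setting where they were tested, as did all 113 with a difference of at least 0.3 on the log2 scale. With the replicate number as a block, 50 carriers were higher and 88 lower. Deviations of same-numbered libraries correlated at 0.0188, 0.012 and -0.0388, and not every library correlated best with its own number, so the numbers did not pair the libraries, and no other call among the named carriers changed under the block than those of Slc25a35 and Slc35a1. Under median-of-ratios scaling 3 called carriers turned positive without a call, Slc35e4 (0.054), Slc35c1 (0.064) and Slc44a2 (0.014), as did the uncalled Slc25a10 (0.097) and Slc25a17 (0.10) and Slc7a6os (0.13). Slc25a28 (0.13), Slc25a4 (0.18), Slc35a4 (0.17) and Slc38a10 (0.14) turned positive and were called there. Slc22a5, Slc7a6, Slc7a7 and Slc4a1ap became called under both scalings. Quantile normalization turned Slc25a17 (0.012), Slc25a28 (0.053) and Slc7a6os (0.096). Leaving out 1 library turned some uncalled carriers, with values from -0.090 to 0.019 for Slc7a6os, -0.024 to 0.0072 for Slc25a4, -0.048 to 0.020 for Slc35a4 and -0.035 to 0.14 for Slc30a4. Calls of Slc25a35, Slc35a1, Slc35c1, Slc46a1, Slc2a9, Slc8a1 and Slc35e4, all close to the threshold, were lost when some single library was left out: that of Slc2a9 without CKO replicate 3 (limma adjusted p = 0.0619), of Slc35e4 without WT replicate 3 (0.0583) and of Slc8a1 without WT replicate 2 or CKO replicate 3 (0.0742 to 0.0866). Slc25a35 lost it without WT replicate 3, CKO replicate 1 or 3 (0.0922 to 0.201), Slc46a1 without WT replicate 1 or 3 or CKO replicate 3 (0.0555 to 0.137), Slc35c1 without WT replicate 1 or 3 or CKO replicate 1 or 3 (0.0551 to 0.178) and Slc35a1 without any library but CKO replicate 2 (0.0535 to 0.117). The cause of these changes was not tested. At least 124 reads stood behind each carrier in its higher group, and the part of depth in these changes was not tested.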
